A study of Homo sapiens with 16 samples.

Results

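The comparison described here sets HepG2 cells given stearic acid against control cells without added fatty acid. HepG2 is a human liver tumour cell line that keeps many hepatocyte functions. The groups were taken from the sample titles and hold 4 biological replicates each, so 8 of the 16 samples of the study enter the comparison itself. The other 8 samples are 4 oleic acid and 4 elaidic acid cultures of the same line. The acids were used at 100 µM, over 7 days, and the controls are labelled as having no incubated acid. The vehicle is not given in the sources used here. The cells were kept without serum, and the labels give 2 arrays per RNA extract but the deposited values number 1 per probe and sample. All groups come from 1 line, so the p-values concern the spread between cultures of that line. In the fit without a slide range term, described below, that spread also holds a difference between slide ranges.

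Stearic acid is a long-chain saturated fatty acid. In liver cells it is activated to its CoA ester, and can then be desaturated to oleic acid, stored in triglyceride and phospholipid, or oxidised in mitochondria. Saturated fatty acids in excess are known to load the membrane of the endoplasmic reticulum (ER) and to engage the unfolded protein response, while sterol-regulated genes answer to membrane cholesterol and unsaturated fatty acids.

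RNA was amplified, labelled with the dye Cy5 and hybridised to 1-colour arrays of 30968 probes. All levels below are log2 of the deposited intensity after quantile normalisation. A change is the stearic mean minus the control mean on that log2 scale, given with its standard error (SE) from the limma fit, and each group has n = 4. A change was called where limma's adjusted p (Benjamini-Hochberg, over 22939 probes) was under 0.05. The median intensity of a sample ran from 45.8 to 76.1 with stearic acid. Control 4 was at 72.8, and the other 3 controls, at 37.6 or less, were dimmer than every stearic sample. The number of arrays limits the precision. All 10 tested hepatocyte markers had a mean level of 8.47 or more, against a median of 6.59 for all probes. Of 14 tested markers of other cell types, 7 lay under that median and 2 at 8.47 or more.

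By their slide numbers, the arrays form 2 ranges. All 4 control, all 4 oleic and elaidic replicates 2 and 4 lie in range A (10 samples), and all 4 stearic samples and elaidic replicates 1 and 3 lie in range B (6 samples). Stearic acid and slide range therefore coincide, and the elaidic samples give the only measure of the range. The difference between elaidic replicates in range B and in range A is called the range difference below. The blocked change is the stearic change after the range difference has been subtracted, from a fit with the range as a block. It assumes that the range shifts a probe equally in all groups. Elaidic replicates of the same range number 2, so at equal spread the blocked change has the larger error. The fit without the block takes the 4 elaidic samples as 1 group, so its SE and p also hold their range difference. For the gene FAM54B the SE was 0.82 without the block and 0.76 with it. The calls without the block, and the shares taken of them, therefore depend on the range as well.

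Stearic samples differed from controls at many probes, and most of these differences were shared by elaidic samples hybridised in the same slide range. Without the block, 6825 of 22939 probes were called (29.8%), 3432 higher (15.0%) and 3393 lower (14.8%) with stearic acid. The median of all probes was -0.18. Without normalisation between arrays the median was 0.26 and the split was 2853 higher and 246 lower. Called probes that were higher had a median change of 1.53, a range difference of 0.94 and a blocked change of 0.54. Called probes that were lower had medians of -1.1, -0.77 and -0.33 for the same quantities. With the range as a block, 0 probes were called by limma (0%), 1710 had an unadjusted p under 0.05, and the smallest adjusted p was 0.18.

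The range difference itself was called at 930 probes (4.05%), 541 higher (2.36%) and 389 lower (1.70%) in range B, between 2 and 2 samples of the same treatment. These overlap with the stearic calls at 509 probes, which is 54.7% of the range calls and 7.46% of the stearic calls, and all 509 had the same sign. Of the 6825 stearic calls, 6305 (92.4%) had the sign of the range difference, against 79.5% of all probes. Across probes, which are not independent replicates, the stearic change and the range difference had r = 0.72. The blocked change had the sign of the stearic change and at least 50% of its size at 2349 called probes (34.4%), which is the sense of "remained" below. Its sign turned at 1087. Within range B, stearic acid differed from elaidic acid at 1 probe (0.00436%), which has no symbol. Within range A, elaidic acid differed from control at 9 probes (0.0392%), 6 higher (0.0262%) and 3 lower (0.0131%).

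Single samples weigh on these counts. The stearic calls were 3581 without control 1, 4214 without control 3, 3507 without stearic 1, 4060 without stearic 3 and 4425 without stearic 4. The range calls were 66 without elaidic 1, 136 without elaidic 2, 106 without elaidic 3, 245 without elaidic 4, 606 without stearic 1, 488 without stearic 3, 515 without stearic 4 and 2245 without control 1. The blocked calls were 31 without elaidic 4, 11 without elaidic 2, 7 without elaidic 1, 5 without elaidic 3 and 2 without control 1.

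**Figure D1:**
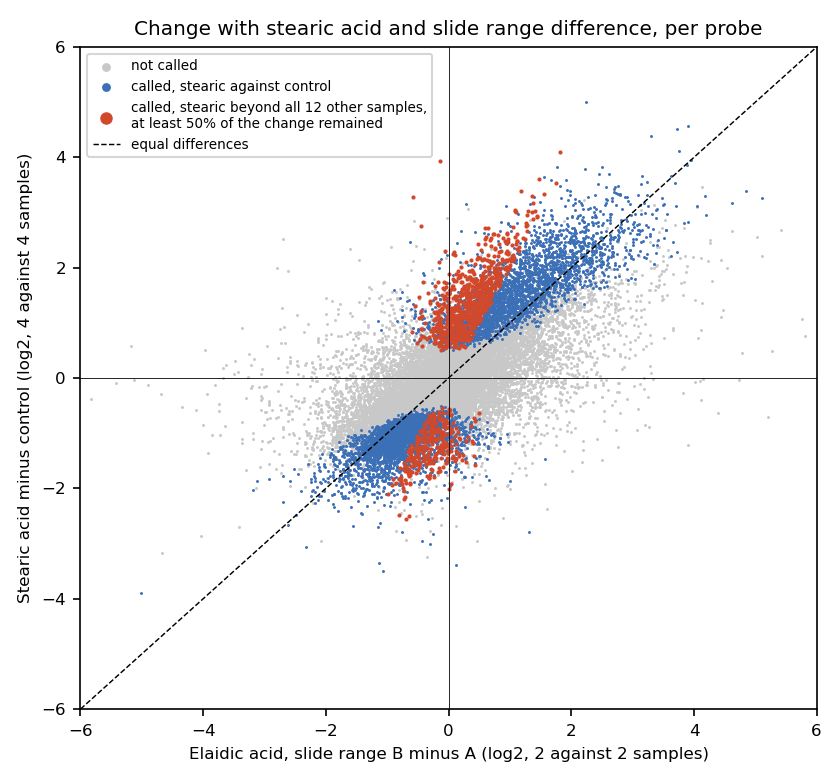
Each point is a probe, with the range difference of the elaidic samples (log2, 2 against 2 samples) on the x axis and the stearic change (log2, 4 against 4 samples) on the y axis. Called probes (blue) follow the dashed line of equal differences more than the vertical axis, and the red points mark called probes whose 4 stearic samples lie beyond all 12 others and whose change remained.

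At 1767 probes (7.70%) the 4 stearic samples lay beyond all 12 other samples, including both elaidic samples of range B, 1224 above (5.34%) and 543 below (2.37%). Among them were 1113 called rises and 496 called falls, of which 707 and 282 also remained under the block. Lying beyond both elaidic samples of range B favours remaining, so the 2 criteria are not independent. The genes with the largest blocked changes in this set encode unrelated products, and most of them were dim.

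AP2S1, the small subunit of the clathrin adaptor AP-2, stood at 6.77, 6.37, 7.3 and 6.56 in the controls and at 9.11, 8.75, 9.27 and 9.11 with stearic acid. All 4 elaidic samples lay between 7.31 and 7.6. The change was 2.31 (SE 0.28, limma adjusted p = 6.5e-04), the range difference -0.05 and the blocked change 2.37. The elaidic levels of the ranges overlapped, at 7.55 and 7.47 in range A and at 7.6 and 7.31 in range B. With 2 samples in each range, the range difference had an SE of 0.4, so its size is known only roughly. The blocked change was not called (SE 0.48, limma adjusted p = 0.3). AP2S1 was also picked for a large blocked change, which favours a small or negative range difference.

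ENTPD7, a nucleotide-hydrolysing membrane enzyme, had the largest blocked fall of this set. Control levels were 13.07, 12.8, 12.62 and 13.04, and stearic levels were 10.93, 11.23, 10.43 and 10.91, below every other sample. The change was -2.01 (SE 0.33, limma adjusted p = 0.0016), with a range difference of 0.01. The bright probes of ADCY7, an adenylyl cyclase, and of CCDC6 fell by 1.41 and 1.47 with blocked changes of -1.58 each. CGA, the common alpha subunit of the glycoprotein hormones, fell by 1.4 (blocked -1.63), while its other probe had a change of -1.02 (SE 1.38) and a blocked change of 2.69.

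EXOSC4, a subunit of the RNA exosome, had a change of 2.76 and a blocked change of 3.21, from control levels between 2.05 and 3.48. Its other probe had a change of 0.83 and a blocked change of 0.5. FHIT, a diadenosine triphosphate hydrolase, rose by 3.38 (blocked 2.2). PRDX2, a cytosolic peroxiredoxin that reduces hydrogen peroxide, rose by 4.1 (blocked 2.28), from 1.42, 3.56, 2.84 and 4.0 to 7.28, 6.89, 7.13 and 6.92, and its other probe rose by 2.77 (blocked 1.49). CORO1B, an actin-binding coronin, had the changes 3.27 and, at its other probe, -0.66, so its probes disagree, and without control 1 the first was 2.13. CAPNS1, the small regulatory subunit of calpain, had a change of 3.94 (SE 1.24) with control 1 at -4.0 and the other controls between 2.87 and 3.92. Without control 1 it was 2.09, and without stearic 1, 3 or 4 it was not called (adjusted p = 0.066, 0.058 and 0.065). A second CAPNS1 probe changed by 1.94 (SE 0.33), with a blocked change of 1.79. The dim probes of SNX19 and SOX6 fell by 2.56 and 2.5, and neither passed (adjusted p = 0.1 and 0.057) once 50 was added to every intensity before the log.

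Adding 50 to every intensity damps the spread of dim probes and keeps all 30968 in the test. With that offset the blocked comparison called 33 probes by limma (0.107%), 27 higher (0.0872%) and 6 lower (0.0194%), and 21 of them carry a symbol. Array weights called 81 (0.353%), 55 higher (0.240%) and 26 lower (0.113%), and 15 of the 21 genes passed there too: RPL8, AP2S1, NUTF2, CCDC56, DDOST, MRPL54, NAV2, ABHD14A, PHPT1, SERPINA6, H1FX, CPN2, C1orf198, PSMB2 and APOBEC3D. These 15 were singled out after their values were seen. None was called in the blocked comparison of all 16 samples that used neither the offset nor array weights.

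DDOST, is a subunit of the oligosaccharyltransferase that glycosylates proteins entering the ER. It stood at 13.33, 13.19, 13.41 and 13.09 in the controls and at 14.77, 14.59, 14.67 and 14.76 with stearic acid. The elaidic samples were at 13.87 and 14.17 in range A and 13.96 and 13.94 in range B, so the ranges did not separate. The change was 1.44 (SE 0.18), and the blocked change was 1.51 with and without the offset.

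RPL8, a protein of the large ribosomal subunit, rose from 11.57, 12.25, 12.4 and 12.4 to 14.76, 14.53, 14.74 and 14.68. Elaidic samples were at 12.78 and 13.18 in range A and at 13.64 and 13.51 in range B, so both the range and the group separated. Its change was 2.52 (SE 0.26, limma adjusted p = 3.3e-04) and its blocked change 1.93.

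SERPINA6, the plasma carrier of cortisol, rose from between 7.64 and 8.07 to between 9.47 and 9.74, with a change of 1.84 (SE 0.2) and a blocked change of 1.57. CPN2, the regulatory subunit of the plasma enzyme carboxypeptidase N, rose by 1.56, with a blocked change of 2.32 and a range difference of -0.75 in the opposite direction. Its elaidic samples of range A were at 6.86 and 6.78, among the stearic values of 6.21 to 6.97. Within range A, elaidic acid was above control by 1.21 for SERPINA6 and 1.74 for CPN2. Within range B, stearic acid was above elaidic acid by 0.37 and 0.58. H1FX, a linker histone, rose by 2.32 and NUTF2, a nuclear import factor for the GTPase Ran, by 2.54. A second NUTF2 probe had a change of 3.21 and a blocked change of 0.54. CCDC56 had a change of 1.89 and a blocked change of 1.89, and MRPL54, a mitochondrial ribosomal protein, 1.11 and 1.56. With the offset alone, PECR, a peroxisomal reductase of fatty acid elongation, rose by a blocked 1.17, and GPR37L1, an orphan receptor, fell by 1.22.

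**Figure D2:**
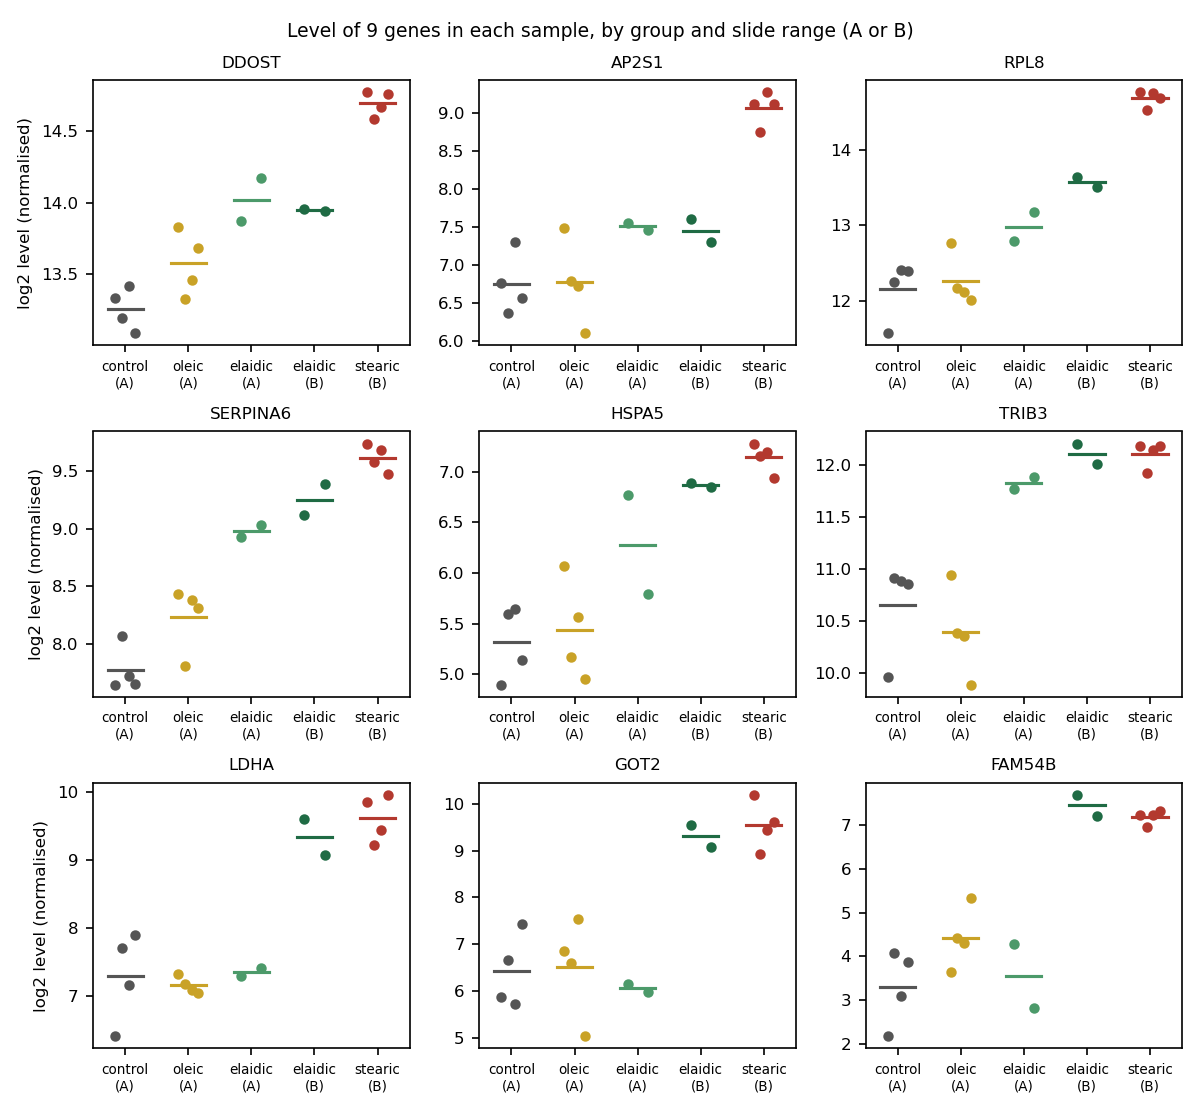
Each panel shows the normalised log2 level of a gene in every sample (points), with bars at the group means, by treatment and slide range. DDOST and AP2S1 are highest with stearic acid while both elaidic ranges are level, whereas for LDHA, GOT2 and FAM54B the elaidic samples of range B sit with the stearic samples.

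Without the block and with 1 probe per symbol, the one of smallest p, the 10 largest rises had mean levels under the median of all probes. In each of these 10 the elaidic samples of range B were also above those of range A. The probes of PRDX2 and CAPNS1 given above changed as much, but are not among the 10 because another probe of each gene had the smaller p. FAM54B stood at 2.18, 4.07, 3.1 and 3.86 in controls and at 7.21, 6.94, 7.22 and 7.31 with stearic acid, while elaidic samples were at 4.28 and 2.82 in range A and 7.68 and 7.21 in range B. Its change was 3.87 (SE 0.82) and its blocked change -0.02. C3orf39 (3.95, blocked -0.01) and CHMP2A, a subunit of the membrane-cutting ESCRT-III complex (3.66, blocked 0.04), had the same pattern. CNBP, HSDL2 and C9orf78 rose by 4.12, 4.39 and 4.57 with blocked changes of 0.36, 1.09 and 0.67. A second CNBP probe, at a mean level of 9.72, had a change of -0.21 (adjusted p = 0.67), so the CNBP probes disagree.

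CSNK1A1, a casein kinase, had the largest of these rises, 4.99 (SE 1.77), with control 1 at -4.59 and the other controls between 4.94 and 6.69. It was 2.31 without control 1, and was not called without control 3, elaidic 3 or 4, or any one stearic sample (adjusted p from 0.051 to 0.095). NGRN, TMEM86B and MON1B rose by 3.7, 3.8 and 3.82, and the other MON1B probes changed by -1.92 and -0.71. Without control 1, CHMP2A was not called (adjusted p = 0.054), MON1B was 2.53 and CNBP was 2.68 and not called (0.088), and CNBP was not called without stearic 1, 3 or 4 either. TMEM86B was 2.05 without control 4 and was not called without stearic 1, 3 or 4. Among the falls, OR5I1, an olfactory receptor, changed by -2.48 and by 0.01 with the block. DNTT, a DNA polymerase of lymphocytes, fell by 3 (blocked -2.7), from levels between 2.28 and 4.92. SLC10A5, RBMY2FP, CTCF, CPM and BTNL8 changed by -2.79, -2.68, -2.34, -2.31 and -2.23, and UPK2, the only bright one of these, by -2.29 (blocked -1.24). A second SLC10A5 probe had a change of -0.07 (adjusted p = 0.93). With the offset of 50, DNTT and CTCF did not pass (adjusted p = 0.072 and 0.19). OR5I1 was not called without control 1 or stearic 1, CTCF without control 1 or 3 or stearic 2 or 4, and CPM without control 1 or 3 or stearic 3 or 4. CPM was -1.31 without stearic 3.

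Genes of pathways are described next by list. As the background for each list, of 12085 symbols with 1 probe each, 20.2% were called higher and 11.8% lower, and the median change was 0.09 (blocked 0.03). The 4 stearic samples lay above all 12 others for 6.91% of these symbols and below them for 1.9%.

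Sequence is shown for genes of the unfolded protein response and of the antioxidant response, because these stress programmes have defined promoter elements. The ER stress response element, CCAAT and CCACG with 9 bases between them on either strand, lies within 250 bases before the start of 26 of 35116 RefSeq promoters (0.074%, GRCh38.p14), 7 of them among the 25 listed unfolded protein response genes with a promoter entry. The capitals mark the match, and each sequence ends at the base before the RefSeq start.

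The windows shown are those of HSPA5 (chr9:125241344-125241443, minus strand), CRELD2 (chr22:49918534-49918633, plus strand), PDIA6 (chr2:10812786-10812891, minus strand) and CALR (chr19:12938364-12938608, plus strand), from the first base drawn to the base before the start.
HSPA5: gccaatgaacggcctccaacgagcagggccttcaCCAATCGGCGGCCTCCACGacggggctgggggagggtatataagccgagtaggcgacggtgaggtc
CRELD2: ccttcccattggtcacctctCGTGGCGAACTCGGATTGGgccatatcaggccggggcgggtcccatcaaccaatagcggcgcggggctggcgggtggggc
PDIA6: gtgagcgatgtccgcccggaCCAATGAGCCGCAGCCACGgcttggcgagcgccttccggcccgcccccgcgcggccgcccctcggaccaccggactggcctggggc
CALR: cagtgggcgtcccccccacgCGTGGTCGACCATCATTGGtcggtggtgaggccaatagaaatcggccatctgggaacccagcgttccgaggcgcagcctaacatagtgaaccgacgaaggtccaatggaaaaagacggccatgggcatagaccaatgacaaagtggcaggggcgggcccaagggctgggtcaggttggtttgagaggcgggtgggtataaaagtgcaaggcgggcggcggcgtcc

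HSPA5 encodes BiP, the main ER chaperone. Its levels were 4.89, 5.59, 5.64 and 5.14 in controls and 7.28, 7.16, 7.2 and 6.94 with stearic acid, with no overlap. The change was 1.83 (SE 0.3, limma adjusted p = 0.0014). The elaidic samples of range B were at 6.88 and 6.85, and those of range A at 6.77 and 5.79, so the blocked change of 1.24 (adjusted p = 0.54) rests on 2 samples that differ by almost 1 unit. The other genes with the element did not move together. CRELD2, a secreted ER stress protein, had a change of 2.01 and a blocked change of 0.26, while CALR, CANX, XBP1 and HSP90B1 had 0.05, 0.52, 0.40 and -0.41. PDIA6 was not tested. A match describes letters in a window and is no evidence of binding.

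Across the unfolded protein response and ER chaperones, 21 of 26 tested genes had a change above 0, 11 rose and 2 fell, with a median of 0.81. The range difference had a median of 0.43 and the blocked change one of 0.16, and 5 of the 13 called changes remained. DNAJB9, an ER co-chaperone that restrains the sensor IRE1, rose by 2.65 (SE 0.4, limma adjusted p = 0.0011), with a range difference of 1.66. DDIT3, the transcription factor CHOP that is induced in prolonged ER stress, was at 9.97, 11.7, 10.18 and 11.11 in controls and at 10.82, 10.53, 10.95 and 10.76 with stearic acid, a change of 0.02 (SE 0.35, adjusted p = 0.96).

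Targets of ATF4, the transcription factor of the integrated stress response, with the enzymes of serine synthesis, had a median change of 0.94 over 21 tested genes, of which 12 rose and 1 fell. The blocked median was 0.42 with 16 of 21 above 0. PHGDH, the first enzyme of serine synthesis, rose from 8.57, 9.02, 8.84 and 8.64 to 10.18, 10.38, 10.28 and 10.26, a change of 1.51 (SE 0.22, limma adjusted p = 9.7e-04). Its range difference was 0.22 and its blocked change 1.28. For PHGDH, elaidic acid was above control by 0.86 in range A, and stearic acid above elaidic acid by 0.43 in range B. TRIB3, a pseudokinase induced by ATF4, rose by 1.45 (SE 0.26, adjusted p = 0.0021). Elaidic samples of range A were at 11.76 and 11.88, below the stearic samples at 11.92 to 12.18. Those of range B, at 12.2 and 12.01, overlapped the stearic samples. The TRIB3 blocked change was 1.16, with elaidic acid above control by 1.17 in range A and stearic minus elaidic acid at -0.0 in range B.

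The antioxidant response element, TGAC and GCA with 3 bases between them on either strand, lies in the same window of 911 promoters (2.59%), 5 of them among the 23 listed NRF2 target genes with a promoter entry. NRF2 is the transcription factor that drives glutathione and detoxifying enzymes. The windows shown are those of GPX2 (chr14:64942746-64942888, minus strand) and TXNRD1 (chr12:104286909-104287031, plus strand), with the match in capitals.
GPX2: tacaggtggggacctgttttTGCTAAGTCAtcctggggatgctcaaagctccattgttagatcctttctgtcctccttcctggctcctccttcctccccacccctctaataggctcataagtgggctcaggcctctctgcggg
TXNRD1: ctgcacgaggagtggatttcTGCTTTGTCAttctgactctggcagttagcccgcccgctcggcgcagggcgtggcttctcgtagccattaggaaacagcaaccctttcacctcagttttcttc

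GPX2, a glutathione peroxidase, rose from 8.32, 9.13, 9.28 and 8.78 to 11.28, 11.21, 11.3 and 11.72. The change was 2.5 (SE 0.29, limma adjusted p = 6.5e-04), the range difference 0.67 and the blocked change 1.82. Of the other genes with the element, KEAP1, which holds NRF2 inactive, had a change of 2.67 with a range difference of 2.06, and GSTP1, a glutathione transferase, had one of -0.42 (adjusted p = 0.21). GCLM and TXNRD1 were not tested. HMOX1, the haem-degrading enzyme haem oxygenase, rose by 2.95 (SE 0.35), with a range difference of 1.29 and a blocked change of 1.66. In the NRF2 list 12 of 21 tested genes rose and 0 fell, the median was 0.91 and the blocked median 0.25. The 4 stearic samples lay above all 12 others in 5 of the 21.

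Genes of protein synthesis, protein breakdown and respiration had the largest list medians. Of 23 tested cytosolic ribosomal protein genes, 18 rose and 0 fell, with a median change of 1.45, a range difference of 0.59 and a blocked change of 0.85, above 0 in 20. The list held 78 genes, of which 53 had no probe of that symbol. The mean level per sample was 8.95, 9.62, 9.43 and 9.72 in controls and 11.03, 10.8, 10.87 and 10.94 with stearic acid, and elaidic samples were at 9.88 and 9.88 in range A and at 10.61 and 10.58 in range B. RPL13A rose by 1.07 (SE 0.17), with a range difference of 0.08.

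Of 26 tested proteasome subunits, 19 rose and 1 fell, with a median change of 1.12 and a blocked median of 0.64, above 0 in 22. PSMB3, a beta subunit of the 20S core, rose by 1.75 (SE 0.24, limma adjusted p = 9.7e-04), with a blocked change of 1.33. PSMD3, a regulatory particle subunit, rose by 1.64 and had a blocked change of 0.81. The stearic samples lay above all 12 others for 10 of the 26 subunits.

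Of 43 tested genes of oxidative phosphorylation, 28 rose and 0 fell, with a median change of 1.49, a range difference of 0.66 and a blocked median of 0.50, above 0 in 38. The stearic samples lay above all 12 others for 17 of the 43. ATP5G3, a membrane ring subunit of ATP synthase, rose from 8.83, 9.87, 9.35 and 9.64 to 11.42, 11.24, 11.52 and 11.58. Elaidic samples were between 9.72 and 10.08 in both ranges. Its change was 2.02 (SE 0.27) and its blocked change 1.82. ATP5O, another ATP synthase subunit, rose by 1.75 and had a blocked change of 1.1, but its second probe had a change of 2.08 and a blocked change of -0.21.

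Within range B, the median difference from elaidic acid was 0.39 for ribosomal proteins (18 of 23 above 0), 0.32 for proteasome subunits (21 of 26) and 0.30 for oxidative phosphorylation (36 of 43). These medians are smaller than the stearic changes, and no gene of these lists was called within range B. In range A, the median of elaidic acid minus control was 0.48 for ribosomal proteins (21 of 23 above 0). It was 0.19 for proteasome subunits (18 of 26) and 0.2 for oxidative phosphorylation (31 of 43).

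**Figure D3:**
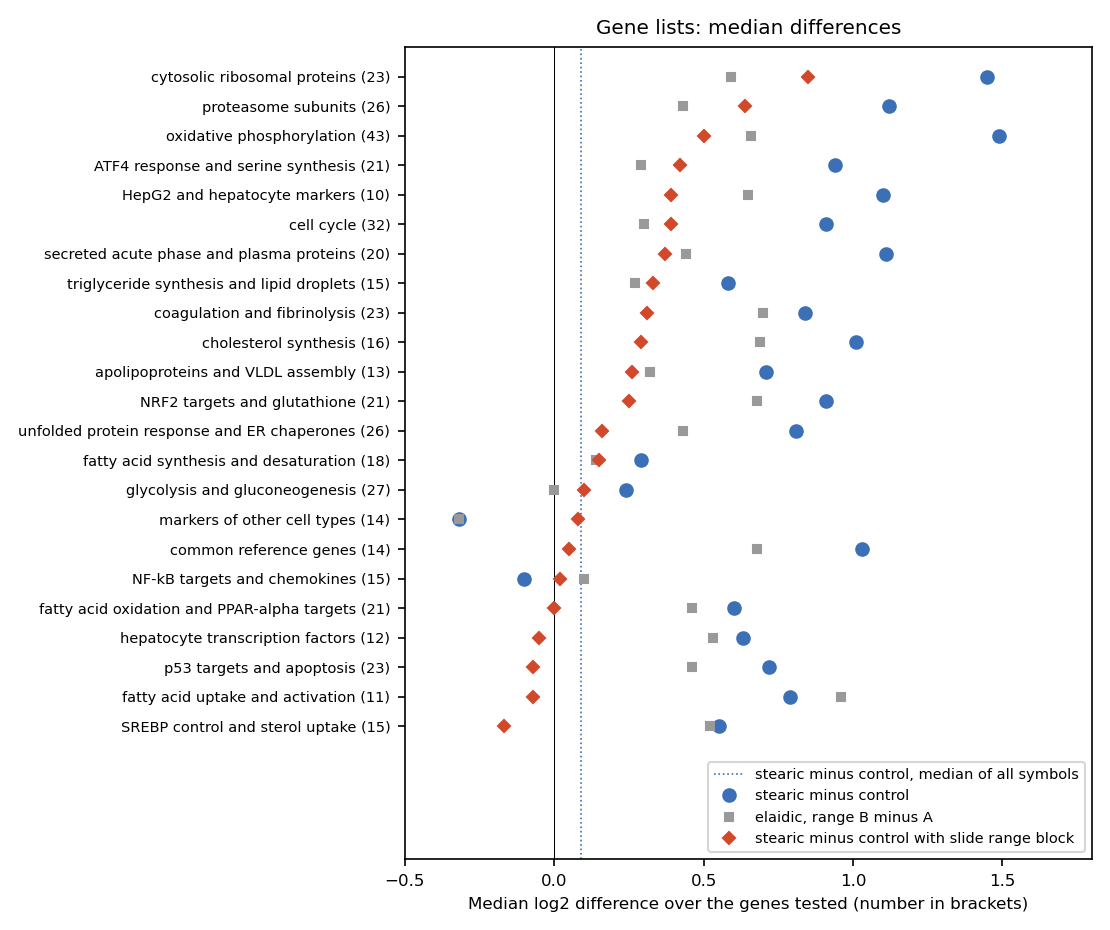
Median log2 difference of each list (genes tested in brackets) for stearic minus control (circles), for the elaidic range difference (squares) and for the blocked change (diamonds). The dotted line is the median stearic change of all symbols, 0.09, and the ribosomal, proteasome and respiratory lists have the largest blocked medians.

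Lipid genes were described from several lists. Of 16 tested cholesterol synthesis genes, 10 rose and 0 fell, with a median change of 1.01, a range difference of 0.69 and a blocked median of 0.29. Within range B, 3 of the 16 were higher with stearic than with elaidic acid, and the median difference was -0.65. Elaidic acid in range A was above control in 16 of 16. SQLE, which makes squalene epoxide, was at 7.83, 8.34, 7.98 and 8.44 in controls and at 9.58, 9.06, 9.79 and 9.29 with stearic acid, a change of 1.28 (SE 0.26, limma adjusted p = 0.0037, blocked 0.56). CYP51A1, a sterol demethylase, rose by 1.28 (blocked 0.81), and its other probe had a change of -0.90 (blocked 0.10). INSIG1 and SCD were left out for values at or below 0.

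Genes of SREBP control and sterol uptake gave 3 rises and 3 falls of 15 tested, with a median of 0.55 and a blocked median of -0.17. NPC2, a lysosomal cholesterol carrier, rose by 2.44 and LRP1, an endocytic receptor, by 1.22, with blocked changes of 1.09 and 0.92. Fatty acid synthesis and desaturation gave 5 rises and 0 falls of 18, with a median of 0.29. SLC25A1, the mitochondrial citrate carrier that supplies carbon for lipid synthesis, rose from 8.29, 8.52, 9.13 and 8.11 to 10.17, 10.03, 10.09 and 10.02. Its change was 1.56 (SE 0.26), its range difference 0.2 and its blocked change 1.36. For SLC25A1, elaidic acid was above control by 1.09 in range A, and stearic acid above elaidic acid by 0.27 in range B. ACSS2, which makes acetyl-CoA from acetate, rose by 1.99, with a range difference of 1.45.

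Triglyceride synthesis and lipid droplet genes gave 4 rises and 1 fall of 15, with a median of 0.58 and a blocked median of 0.33. DGAT2, which adds the last acyl chain of triglyceride, was at 7.96, 7.82, 7.96 and 7.62 in controls and at 8.67, 8.44, 8.56 and 8.35 with stearic acid, a change of 0.67 (SE 0.18, limma adjusted p = 0.015) and a blocked change of 0.95. Elaidic samples were at 8.86 and 8.56 in range A and at 8.41 and 8.45 in range B. The blocked value thus came mostly from elaidic acid above control in range A (0.88), and stearic minus elaidic acid in range B was 0.07. AGPAT2, an acyltransferase of the same pathway, rose by 1.11. ADFP, the lipid droplet coat protein perilipin 2, rose by 0.63 (SE 0.21, limma adjusted p = 0.036), from between 12.28 and 12.79 to between 12.93 and 13.52. It was not called without control 1, 3 or 4 or stearic 1, 2 or 3 (adjusted p from 0.055 to 0.088), and DGAT2 was not called without stearic 1 (0.055).

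Fatty acid oxidation and PPAR-alpha target genes gave 8 rises and 1 fall of 21, with a median of 0.60 and a blocked median of 0.00. ETFA, an electron carrier of beta-oxidation, rose by 3.25 with a range difference of 2.06, and ECHS1, a hydratase of the same pathway, by 2.38 with one of 2.16. Of the genes fixed by name, CPT1A, PDK4 and ANGPTL4 were not called and had changes of -0.07 (SE 0.21), -0.53 (SE 0.68) and -0.72 (SE 0.27). ANGPTL4 had adjusted p = 0.054 here and 0.039 with the offset of 50, and it was called without control 2 or 4, elaidic 3 or stearic 2.

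Fatty acid uptake and activation gave 5 rises and 0 falls of 11, with a median of 0.79, but the range difference had a median of 0.96 and 0 of the 5 remained. GOT2, a mitochondrial transaminase also described as a membrane fatty acid binding protein, was at 5.87 to 7.43 in controls and 8.93 to 10.19 with stearic acid, and at 9.55 and 9.08 in elaidic range B, with a blocked change of -0.14. FABP1, the liver fatty acid binding protein, rose by 1.71 (SE 0.43, limma adjusted p = 0.011), with a blocked change of 0.78, and its other probe changed by 1.68. Apolipoproteins and VLDL assembly genes gave 4 rises and 0 falls of 13, with a median of 0.71, a range difference of 0.32 and a blocked median of 0.26. LIPC, hepatic lipase, rose by 0.87 and had a blocked change of 1.15, and APOH rose by 0.9.

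**Figure D4:**
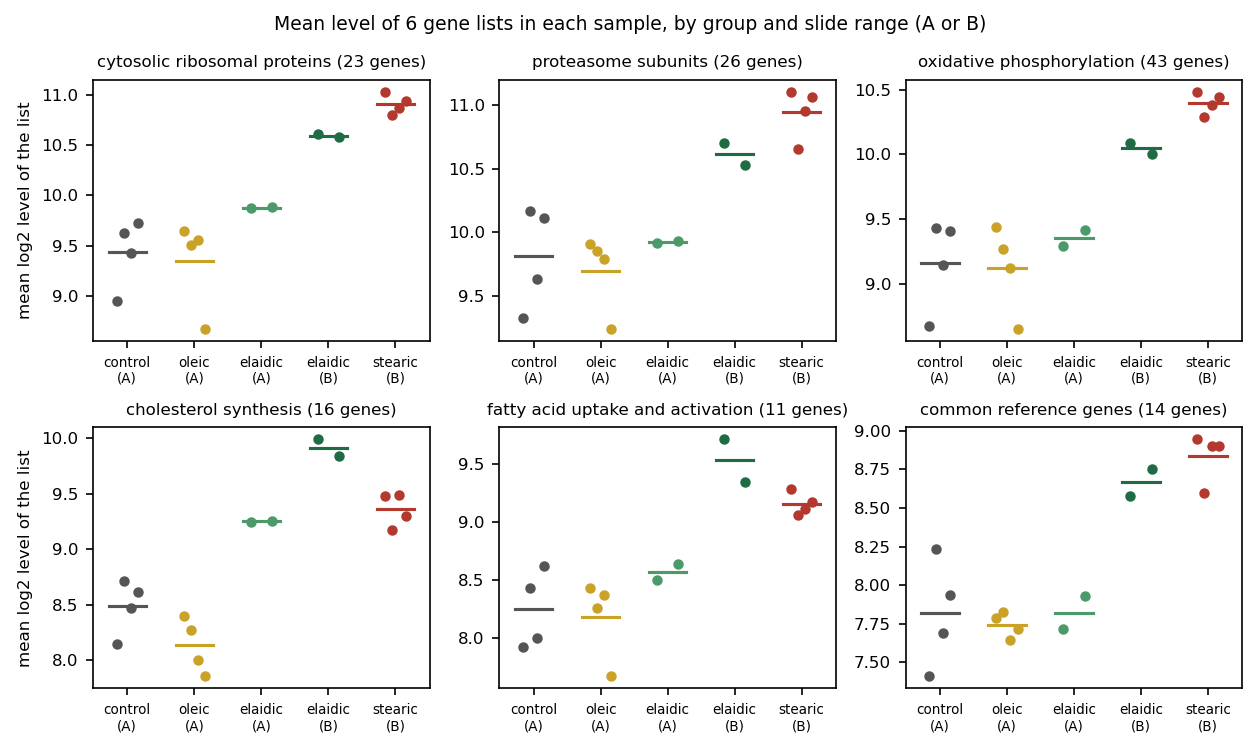
Mean log2 level of 6 lists in every sample (points), with bars at the group means, by treatment and slide range. The stearic samples are the highest for ribosomal, proteasome and respiratory genes except for 1 proteasome value between the elaidic ones of range B, whereas the elaidic samples of range B are the highest for cholesterol synthesis and fatty acid uptake.

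Several genes of proteins that hepatocytes secrete were higher with stearic acid than in controls, but their lists were not higher than with elaidic acid in range B. Acute phase and plasma protein genes gave 12 rises and 1 fall of 20, with a median of 1.11 and a blocked median of 0.37, and 7 of the called changes remained. TF, the iron carrier transferrin, rose from 7.13, 8.52, 8.4 and 9.29 to 11.63, 11.31, 11.47 and 11.65, a change of 3.18 (SE 0.48) with a range difference of 1.49. Coagulation and fibrinolysis genes gave 10 rises and 2 falls of 23, with a median of 0.84, a range difference of 0.7 and a blocked median of 0.31. F2, prothrombin, rose by 2 and F8, coagulation factor VIII, by 1.22, and the F8 blocked change was 1.6. For F8, elaidic acid was above control by 1.27 in range A, and stearic acid above elaidic acid by 0.32 in range B. AHSG, a fetuin, rose by 1.71, and 7 of 10 hepatocyte markers rose. The markers had a median of 1.1, a range difference of 0.65 and a blocked median of 0.39. Within range B the median difference from elaidic acid was -0.17 for acute phase and plasma proteins (8 of 20 above 0). It was -0.16 for coagulation (9 of 23) and -0.09 for hepatocyte markers (3 of 10).

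Hepatocyte transcription factors gave 4 rises and 2 falls of 12, with a blocked median of -0.05. FOXA3, a forkhead factor, rose by 2.52 (blocked 1.28) and CEBPB, a factor of the acute phase response, by 2.57 (blocked 0.57). Glycolysis and gluconeogenesis gave 8 rises and 2 falls of 27, with a median of 0.24. FBP1, the phosphatase of gluconeogenesis, rose by 1.03 (blocked 0.68). LDHA, lactate dehydrogenase, rose by 2.32 with a range difference of 1.98.

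Cell cycle genes gave 15 rises and 0 falls of 32, with a median of 0.91 and a blocked median of 0.39. Within range B the median difference from elaidic acid was -0.40, with 6 of 32 above 0, and elaidic acid in range A was 0.69 above control. BIRC5, survivin, rose by 1.6 and CENPA, the centromeric histone, by 3.13, and other probes of these genes had changes of 0.03 and 0.33. Targets of p53 and apoptosis genes gave 8 rises and 1 fall of 23, with a blocked median of -0.07. GDF15, a stress-induced cytokine, rose by 1.83 (blocked 1.28), and BCL2L11, the pro-apoptotic protein BIM, fell by 1.53 (blocked -0.86).

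NF-kB targets and chemokines gave 4 rises and 0 falls of 15, with a median of -0.10 that was 0.16 under median scaling and 0.66 without normalisation. ICAM1, an adhesion molecule, rose from 9.53, 9.42, 9.86 and 9.17 to 11.23, 10.97, 10.98 and 10.99. All 4 elaidic samples lay between 9.93 and 10.51, the range difference was -0.02 and the blocked change was 1.57, against a change of 1.54 (SE 0.24, limma adjusted p = 0.0012). SOD2, the mitochondrial superoxide dismutase, rose by 2.28 with a range difference of 1.63.

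Common reference genes, which are used because they are taken to vary little, gave 7 rises and 1 fall of 14, with a median of 1.03, a range difference of 0.68 and a blocked median of 0.05. PSMB2 rose by 1.02 (SE 0.18) and YWHAZ by 1.4 (SE 0.27), with blocked changes of 1.16 and 0.78. Markers of other cell types gave 1 rise and 3 falls of 14. Their mean level was 6.27 to 6.46 in controls and 6.1 to 6.21 with stearic acid, and their part in the other results was not tested. COL1A2, a fibroblast collagen, fell by 1.26 (blocked -1.12), and DES, a muscle filament protein, fell by 0.86 (blocked 0.07), a call lost without any one control but 4 and without any one stearic sample (adjusted p from 0.056 to 0.14).

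Among falls, the smallest unadjusted p of the blocked comparison belonged to 3 genes that were not called. CCDC45 had a blocked change of -3.06 (limma adjusted p = 0.18), GPRASP1 one of -2.02 and FARP2 one of -2. The stearic changes of CCDC45 and FARP2 were 0.23 and 0.06, so their blocked values came from the elaidic samples, at 1.39 and 2.01 in range A and 5.1 and 4.87 in range B for CCDC45. GPRASP1, a sorting protein of G protein-coupled receptors, was lower in all 4 stearic samples (5.04 to 5.9) than in all 4 controls (6.56 to 6.84). Its other probe had a change of -0.8 and a blocked change of -0.22.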

How the data were processed

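The deposited table holds 1 intensity per probe and sample on a linear scale. From the values, the background was subtracted and no scaling between samples applied by the authors; the background method and how the 2 arrays of an extract were combined are not given in the sources used here. Any probe that was not above 0 throughout (8029 of 30968, 25.9%) was left out, and log2 of the rest was quantile normalised. Symbols came from the platform annotation, with 1 symbol for 17397 probes and none for 13571. All 16 samples were fitted with limma 3.58.1 in R 4.3.3 (lmFit, eBayes), which was tested on simulated data. Slide range was taken from the array numbers in the labels. The members and the 23 lists were chosen with earlier results of these data known.

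Genes were named by rule: (a) the 10 largest rises and falls among called probes whose groups do not overlap, with 1 probe per symbol, the one of smallest p, (b) the 3 smallest blocked p in each direction where fewer were called, (c) in each direction the 6 largest blocked changes among called probes beyond all 12 other samples of which at least 50% remained, (d) the 2 members of smallest p in each list, out of up to 4 allowed, and (e) 13 fixed symbols. The selection under (c) was corrected to this rule after values had been seen, which put CAPNS1 and PRDX2 in place of ATF5 and APOBEC3D. Genes holding a motif were named for it. Alternatives covered normalisation, the offset, filters, weights, blocks and leaving out samples. Promoters are RefSeq's (GRCh38.p14).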

Additional observations from a re-analysis of the deposited data

Results flagged for a closer look

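In 8 of 218 groups of 4 samples (3.67%), 1 sample stood apart from the other 3 by more than Dixon's limit. The groups are named probes and list means over the same 8 samples, so they are not independent, and a share expected by chance was not computed. Control 1 was such a sample for CSNK1A1 at a log2 level of -4.59, for CAPNS1 at -4.0, for CPM at 5.3 and for TRIB3 at 9.97. Stearic 2 was the lowest stearic sample for TRIB3 at 11.92, for the mean level of the acute phase and plasma protein list at 9.61 and for that of the common reference genes at 8.6. Stearic 1 was the highest stearic sample for ICAM1 at 11.23.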

How the results depend on the processing

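Stearic calls (6825) were 3099 without normalisation, 10585 with array weights and 4452 without the 2 dimmest arrays. With 1 probe per symbol they were 4161, out of 12085 symbols tested instead of 22939 probes. For a minimum change of 1.5-fold they were 588, and with slide range as a random block 2. They ran from 3507 (without stearic 1) to 8206 (without control 4) when single samples were left out. Without the 2 dimmest arrays and control 4, a setting chosen after seeing the data, they were 2844. Blocked calls (0) were 33 with the offset of 50, 81 with array weights and 2 without the 2 dimmest arrays, and 0 to 31 without single samples. Range calls (930) were 108 without normalisation, 2394 with the offset, 1534 with an intensity trend, 7423 with array weights, 4930 without the 2 dimmest arrays and 5408 without control 4 as well, and 66 to 2245 without single samples. The cause of these moves was not tested. The share of calls that remained, 34.4%, moved by less than 1.5 times in every alternative run.

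Replicate numbers did not pair the samples. For this, each sample was taken as its deviations from the mean of its own group. These deviations correlated between -0.17 and 0.181 for same-numbered control and stearic samples, and 1 of 4 stearic samples correlated best with its own number. The levels themselves correlated between 0.804 and 0.943 across control and stearic samples. With the replicate number as a block, 5283 probes were called for stearic acid, 0 with the slide range block added and 37 for the range difference.

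With the slide range block no named probe was called. Of the 86, 75 lost their call with the sign kept, and PDK4 and ANGPTL4 were not called either way. The block turned the sign of 9: FAM54B (-0.02), C3orf39 (-0.01), OR5I1 (0.01), GOT2 (-0.14), DES (0.07), CCDC45 (-3.06), FARP2 (-2), CPT1A (0.37) and DDIT3 (-0.26). With the range as a random block, CCDC45 was -1.48, FARP2 -1.01, CPT1A 0.16 and DDIT3 -0.12. CPT1A was 0.47 without normalisation, 0.03 with cyclic loess and -0.2 (without stearic 2) to 0.06 (without stearic 1) when single samples were left out. FARP2 was -0.12 with median scaling and -0.03 (without stearic 2) to 0.14 (without stearic 1). DDIT3 was -0.23 without the 2 dimmest arrays, -0.23 (without control 1) to 0.35 (without control 2), with -0.16 without control 3 and -0.04 without stearic 3, and, with control 4 and the dimmest arrays left out, -0.17, where CCDC45 was -0.07. With the offset of 50, which damps signal near background, 4 of the 86 named probes lost their call (DNTT, SNX19, SOX6 and CTCF). More lost it, with the sign kept, in other settings: 14 without normalisation, 44 for a minimum change of 1.5-fold and 78 with the range as a random block. Before normalisation, the intensities of some called named probes overlapped between stearic and control samples. These were the falls of CGA, CCDC6, ADCY7, COL1A2, BCL2L11, GPRASP1, DES and SLC10A5, and the rise of CORO1B.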
